A study of Mus musculus with 16 samples.

Results

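The tissue inhibitors of metalloproteinases, Timp1, Timp2, Timp3 and Timp4, and the membrane-anchored inhibitor Reck were examined in mouse liver after repeated injury with carbon tetrachloride (CCl4), in the presence and absence of lipocalin 2 (LCN2). The members were these 5 genes, found by name on the array among 36518 gene symbols, and 7 probes carried these names. RNA from livers of male BALB/c mice was measured on 16 Agilent 1-colour arrays in 4 groups. The groups were wild type (WT) control (n = 4), Lcn2-/- control (n = 3), WT CCl4 (n = 5) and Lcn2-/- CCl4 (n = 4). CCl4, a solvent that hepatocytes turn into a toxic radical, was injected into the abdomen at 0.5 ml/kg in corn oil, 2 times a week over 4 weeks, into mice that were 6 to 8 weeks old at the start, and livers were collected 48 h after the final injection. Controls received corn oil. The Lcn2-/- allele was made in a background of mixed strains and then backcrossed to BALB/c. The arrays are named as replicates of mice, and the sources do not say whether any array held RNA pooled from several animals, so that p-values below measure the spread between these arrays.

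TIMPs are small secreted proteins that bind the active site of matrix metalloproteinases (MMPs) and block the breakdown of collagen and other matrix. Timp1 is produced by activated hepatic stellate cells and is widely used as a marker of liver fibrogenesis. Timp2 also takes part in the activation of proMMP2 by the membrane enzyme MMP14. Timp3 is held in the matrix and inhibits some ADAM and ADAMTS proteases in addition to MMPs, and Timp4 is mainly known from heart. Reck is an unrelated protein, tethered to the cell membrane, that restrains MMP2, MMP9 and MMP14 and acts with Adgra2 in Wnt7 signalling.

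The sequences before the start sites of Timp1, Timp2 and Timp3 are shown because these members had the largest differences after CCl4, of which those of Timp2 and Timp3 passed the test in WT and that of Timp1 did not. They are the 250 bases before the start, from RefSeq on build GRCm38.p6, written 5′ to 3′ on the strand of the gene. Each of the 5 members had 1 entry in that table. In all, 5 motifs were searched on both strands in the 300 bases from 250 before to 50 after the start, namely TGANTCA (AP-1), TGAGTAA (an AP-1 variant), AGGAAG (Ets), TTCNNNGAA (STAT) and GGGCGG (Sp1). Capitals mark a match on either strand.
Timp1, chrX:20869916-20870165, plus strand: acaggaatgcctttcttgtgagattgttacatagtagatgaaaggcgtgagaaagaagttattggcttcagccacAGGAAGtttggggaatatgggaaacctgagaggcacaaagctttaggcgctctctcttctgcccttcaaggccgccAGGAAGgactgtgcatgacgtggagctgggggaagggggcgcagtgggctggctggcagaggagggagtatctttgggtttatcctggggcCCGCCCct
Timp2, chr11:118355412-118355661, minus strand: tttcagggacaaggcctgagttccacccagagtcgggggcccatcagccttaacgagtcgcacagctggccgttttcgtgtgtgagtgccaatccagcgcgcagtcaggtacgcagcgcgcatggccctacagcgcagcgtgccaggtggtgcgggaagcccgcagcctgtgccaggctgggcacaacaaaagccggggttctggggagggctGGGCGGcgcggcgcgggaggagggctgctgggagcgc
Timp3, chr10:86300162-86300411, plus strand: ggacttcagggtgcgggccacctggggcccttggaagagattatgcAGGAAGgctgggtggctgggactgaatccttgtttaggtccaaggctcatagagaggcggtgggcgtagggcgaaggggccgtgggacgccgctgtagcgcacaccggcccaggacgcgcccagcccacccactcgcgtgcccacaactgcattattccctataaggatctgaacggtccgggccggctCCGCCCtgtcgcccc
GGGCGG was found in all 3 of these windows and in Reck but not in Timp4, and 35.7% of the 32851 promoters in the table held it. AGGAAG was found in Timp1, Timp3 and Timp4, against 35.4% of all promoters. TGANTCA (7.81% of promoters) and TTCNNNGAA (8.3%) matched in 0 of the 5 members. TGAGTAA, held by 2.68% of promoters, was found in Timp1 and in no other member. It lay just after the Timp1 start, beside another AGGAAG, in the 30 bases from 21 to 50 after the start.
Timp1, chrX:20870186-20870215, plus strand: ggtggaTGAGTAAtgcgtccAGGAAGcctg
These matches describe letters in a window and show nothing about the binding of a factor.

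The probe positions are those of the files, on the mm9 build. Timp1, Timp3 and Timp4 were each measured by 1 probe, and Timp2 and Reck by 2 probes each. The brighter Timp2 probe lies on chromosome 11 from 118163146 to 118163205, and the other Timp2 probe covers 60 bases whose ends are 6778 bases apart (118171964 to 118178741), so that it crosses an intron and reads spliced RNA. Its sequence is shown because the 2 Timp2 probes differed on single arrays.
Timp2 junction probe, chr11:118171964-118178741, mm9, minus strand: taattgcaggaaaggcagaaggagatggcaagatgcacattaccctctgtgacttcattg
Values below are log2 of the quantile-normalized signal, and a level is never compared between probes. A difference is CCl4 minus control, or Lcn2-/- minus WT, in log2 units, and adjusted p is from limma after Benjamini-Hochberg over the 24357 genes tested (over 33014 probes for second probes). A gene passed the test at an adjusted p under 0.05. In this bulk tissue, fewer cells of a type and less RNA per cell cannot be told apart.

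Albumin averaged from 18.91 to 19.01 in the 4 groups, the level of a liver sample. Lcn2 itself, the targeted gene, measured 15.16 ± 1.66 in WT control and 14.89 ± 0.959 in WT CCl4, against 11.01 ± 0.532 in Lcn2-/- control and 11.56 ± 0.698 in Lcn2-/- CCl4. Every Lcn2-/- array lay below every WT array, and the probe was still well above background on each of them. Whether the probe lies in the deleted part of the gene is not given in the sources used here. The share of spots well above background ran from 51.6% to 60.9% over the arrays, with 0 saturated. WT control 3 stood apart from the other WT controls, at -0.48 on the first principal component against -75.38 to -40.93, and its Lcn2 was the highest of all arrays at 17.57. Lcn2-/- control 3 lay at -43.22 against -94.70 and -87.91. Slide 1 held every control and WT CCl4 1, and slide 2 held the other CCl4 arrays, so that treatment and slide are separated by WT CCl4 1 alone. The genotypes lay in different rows of the slides, again with WT CCl4 1 as the exception.

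The liver's response to CCl4 was examined first in WT. Timp2 and Timp3 rose, by 1.47 (2.78-fold) and 0.94 (1.91-fold), and Timp1 was higher by 1.57 (2.97-fold) without passing the test. Reck differed by 0.28, and Timp4 could not be measured. Of the 5 members, 4 were tested, 2 passed as higher and 0 as lower. Over all genes, 16.7% passed, 8.05% as higher and 8.63% as lower. The median difference of the 4 members was 1.21 against -0.03 over all genes tested. Without both control replicates 3, a setting that leaves out the arrays that stood apart, 3 members passed, Timp1 with Timp2 and Timp3. The shares of all genes given above belong to the fit with every array, and none is given for that setting. Counts without both control replicates 3, here and for the lists below, are therefore not read as a result about those genes. Scaling to the 75th percentile in place of quantiles moved the median of all genes to -0.16 in WT and -0.14 in Lcn2-/-, and the share of higher genes among those that passed from 48.2% to 30.8% in WT and from 54.0% to 36.5% in Lcn2-/-, while Timp2 and Timp3 again passed as higher in WT.

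Timp1 (chromosome X, 20451802 to 20451861) measured 9.06, 7.50, 11.28 and 9.08 in WT control 1 to 4. In WT CCl4 1 to 5 it measured 11.04, 11.29, 10.67, 10.24 and 10.75. The WT groups overlapped because of WT control 3, whose Timp1 level lay within the CCl4 range, while the other controls lay below every CCl4 array. The difference of 1.57 (SE 0.581, 95% interval 0.32 to 2.81) had a limma adjusted p of 0.0805 and a two-sided exact permutation p of 0.0635. Without WT control 3 the difference was 2.25 (limma adjusted p = 0.00321), and without WT control 2 it was 0.99 (limma adjusted p = 0.266).

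Markers of other cells stood with Timp1 on WT control 3. The mean level of 12 macrophage markers was 13.19 there against 11.08 to 11.90 in the other WT controls, that of 10 neutrophil markers was 10.03 against 7.87 to 8.47, and that of 13 stellate cell markers was 11.56 against 10.63 to 11.14. The plot of Timp1 against these lists shows that Lcn2-/- control 3 had a neutrophil level of 10.93 with a Timp1 level of 8.31, the lowest of its group. The part of these cells in the Timp1 level was not tested.

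**Figure D1:**
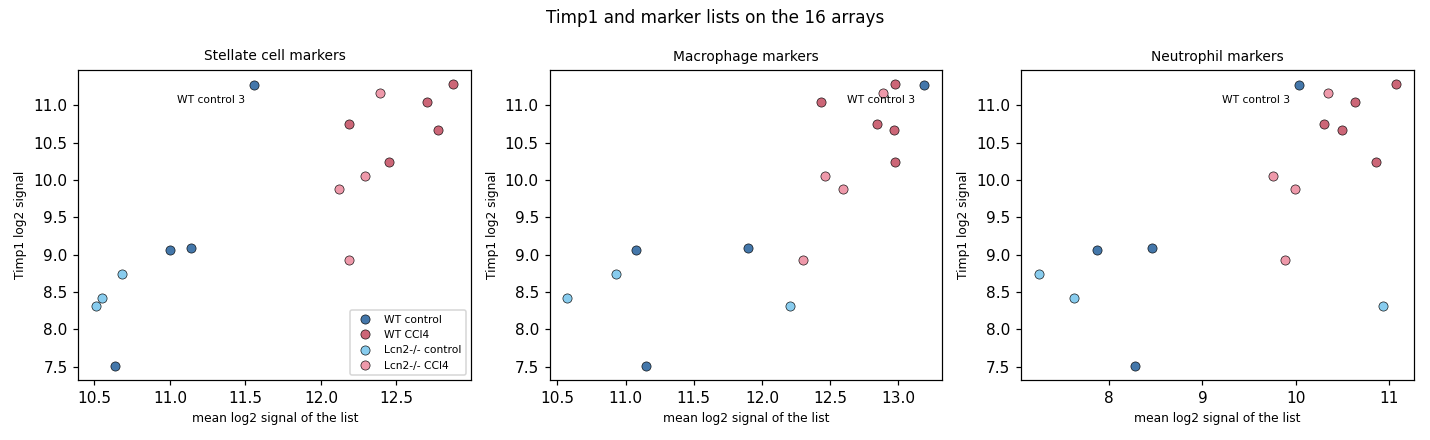
Timp1 log2 signal (vertical axis) against the mean log2 signal of stellate cell, macrophage and neutrophil marker lists (horizontal axes), 1 point per array, coloured by group. WT control 3, at a Timp1 level of 11.28, lies among the CCl4 arrays on the vertical axis and above the other WT controls on each list.

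Timp2, in contrast, separated the WT groups on both probes. The brighter probe measured 13.60, 13.19, 13.63 and 13.19 in WT control 1 to 4 and 14.75, 15.34, 15.54, 14.94 and 13.82 in WT CCl4 1 to 5. WT CCl4 5 was close to the controls and the other 4 were well above them. The difference was 1.47 (SE 0.337, 95% interval 0.75 to 2.20, limma adjusted p = 0.00803), with an exact permutation p of 0.0159. The junction probe measured 9.81, 9.68, 10.49 and 10.19 in the controls and 11.75, 11.77, 11.78, 11.98 and 11.73 under CCl4. On this probe the 5 CCl4 arrays lay close together, WT CCl4 5 included. The difference was 1.76 (SE 0.195, limma adjusted p = 4.62e-05), or 3.38-fold, and the exact permutation p of 0.00794 is the smallest that 126 splits can give. In the fit over all probes 15% passed in this comparison, and groups did not overlap for 17.4% of all genes.

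Timp3 (chromosome 10, 85811696 to 85811755) measured 12.04, 11.76, 12.41 and 11.47 in WT control 1 to 4. Under CCl4 it measured 12.84, 13.29, 13.47, 12.76 and 11.91, and here WT CCl4 5 fell inside the control range. The rise of 0.94 (SE 0.271, 95% interval 0.35 to 1.52) had a limma adjusted p of 0.0294 and an exact permutation p of 0.0476. This call was sensitive to single arrays. It did not pass without WT control 1 (limma adjusted p = 0.0615), WT control 2 (0.0855), WT control 4 (0.0887), WT CCl4 1 (0.0520), WT CCl4 2 (0.0704) or WT CCl4 3 (0.0626), with differences from 0.78 to 0.98.

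**Figure D2:**
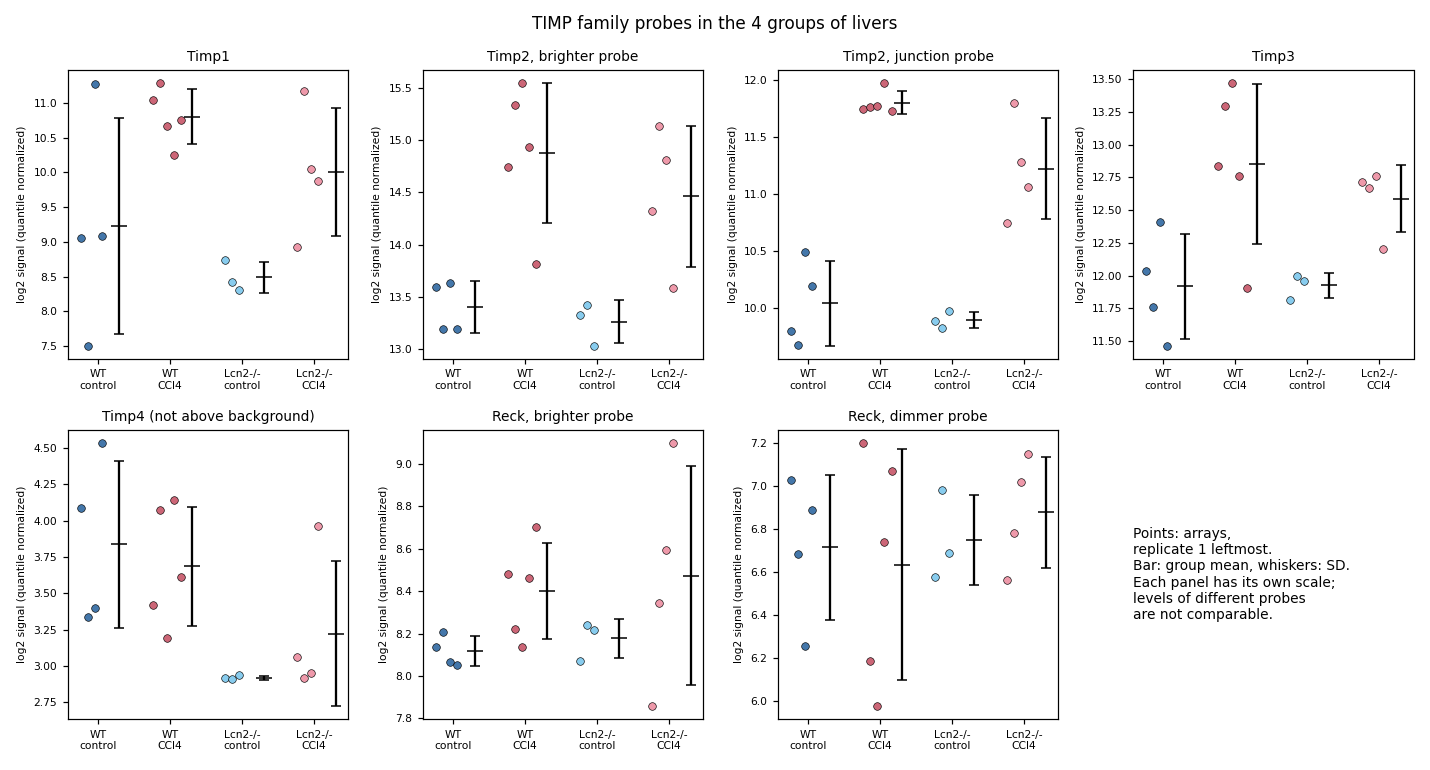
Log2 signal of the 7 member probes on each array (points) with the mean and SD of each group (bar and whiskers), each probe on its own scale. The 5 WT CCl4 arrays lie between 11.73 and 11.98 on the Timp2 junction probe but between 13.82 and 15.54 on the brighter probe, and Timp4 stays between 2.91 and 4.53, not well above background on any array.

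Timp4 (chromosome 6, 115196120 to 115196179) was well above background on 0 of 16 arrays and was not tested. The brighter Reck probe (chromosome 4, 43957616 to 43957675) measured between 8.05 and 8.21 in WT control and 8.14, 8.22, 8.46, 8.48 and 8.70 under CCl4 in ascending order, and the groups overlapped. Its difference of 0.28 (95% interval -0.13 to 0.70) had a limma adjusted p of 0.347 and an exact permutation p of 0.0476. The second Reck probe (43943868 to 43943927) differed by -0.08 (95% interval -0.61 to 0.45, limma adjusted p = 0.867), so the 2 Reck probes differed in sign in WT.

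Treatment and slide overlap in this design, and the WT response was therefore also taken within slide 1, from WT CCl4 1 against the 4 WT controls, with that lone array assumed to vary like the controls. Timp2 differed by 1.34, the Timp2 junction probe by 1.71, Timp1 by 1.81 and Timp3 by 0.92. No p-value is given for this setting, since a lone array has no spread of its own. With slide as a fixed block the same differences were found for these 4 probes, and the limma adjusted p was 0.211 for Timp2, 0.0134 for the junction probe, 0.327 for Timp1 and 0.290 for Timp3. Both fits rest on the same lone array, WT CCl4 1, and are 1 comparison.

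In Lcn2-/- livers the differences after CCl4 were of similar size, 1.51 for Timp1 (2.86-fold), 1.20 for Timp2 (2.30-fold), 0.66 for Timp3 (1.58-fold) and 0.30 for Reck, and 0 of the 4 members tested passed in limma after adjustment. Over all genes, 12.1% passed in this comparison, 6.56% as higher and 5.58% as lower. Timp1, Timp2 and Timp3 had an unadjusted limma p under 0.05, as did 27.0% of all genes, and 3 controls against 4 CCl4 arrays cannot give an exact permutation p below 0.0286. The median difference of the members was 0.93 against -0.02 over all genes tested, and 0 members passed without both control replicates 3. These calls depended on the fit. Timp2 (1.34, limma adjusted p = 0.0119) and Timp3 (0.79, 0.00922) passed with the replicate number as a block. Same-numbered Lcn2-/- control and Lcn2-/- CCl4 arrays hardly deviated together (r of 0.008, 0.019 and 0.010), so the number does not pair these groups. Timp1 (1.42, limma adjusted p = 0.0471), Timp2 (1.34, 0.00200) and Timp3 (0.81, 0.0152) passed with array weights. With these weights far more of all genes passed in this comparison than without them, as counted in the last section.

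Timp1 measured 8.74, 8.42 and 8.31 in Lcn2-/- control 1 to 3 and 8.93, 11.17, 10.05 and 9.87 in Lcn2-/- CCl4 1 to 4. The groups did not overlap, although Lcn2-/- CCl4 1 was just above the controls. The difference of 1.51 (SE 0.661, 95% interval 0.10 to 2.93) had a limma adjusted p of 0.157 and an exact permutation p of 0.0571. For 24.8% of all genes these 2 groups did not overlap.

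The brighter Timp2 probe measured 13.33, 13.42 and 13.03 in the controls and 14.32, 15.14, 14.81 and 13.59 under CCl4, without overlap. Lcn2-/- CCl4 4 was close to the controls. The difference of 1.20 (SE 0.383, 95% interval 0.38 to 2.02) had a limma adjusted p of 0.0560, which became 0.0171 with a difference of 1.49 without Lcn2-/- CCl4 4 and 0.0222 without WT CCl4 5, an array that enters through the shared spread. The junction probe measured 9.89, 9.83 and 9.97 in the controls and 10.75, 11.80, 11.28 and 11.06 under CCl4. It rose by 1.33 (SE 0.222, 2.51-fold, limma adjusted p = 0.00168), with the smallest exact permutation p possible, 0.0286. Of all probes, 11.1% passed here. Timp2 passed in Lcn2-/- when its probes were averaged (1.26, limma adjusted p = 0.00551) and under 75th percentile scaling (1.15, 0.0246). With slide as a block, the junction probe no longer passed (1.27, limma adjusted p = 0.152), and this fit separates slide from treatment through WT CCl4 1 alone.

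Timp3 measured 11.82, 11.997 and 11.96 in the controls and 12.71, 12.67, 12.76 and 12.20 under CCl4. The groups did not overlap, and the exact permutation p was 0.0571. The difference of 0.66 (95% interval 0.00 to 1.32) had a limma adjusted p of 0.185. Reck measured 8.07, 8.24 and 8.22 in the controls and 7.86, 8.34, 8.59 and 9.10 under CCl4, with overlap. Its difference was 0.30 (95% interval -0.17 to 0.77, limma adjusted p = 0.412) and that of the second Reck probe was 0.13 (-0.47 to 0.73, limma adjusted p = 0.814), or -0.11 under 75th percentile scaling.

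**Figure D3:**
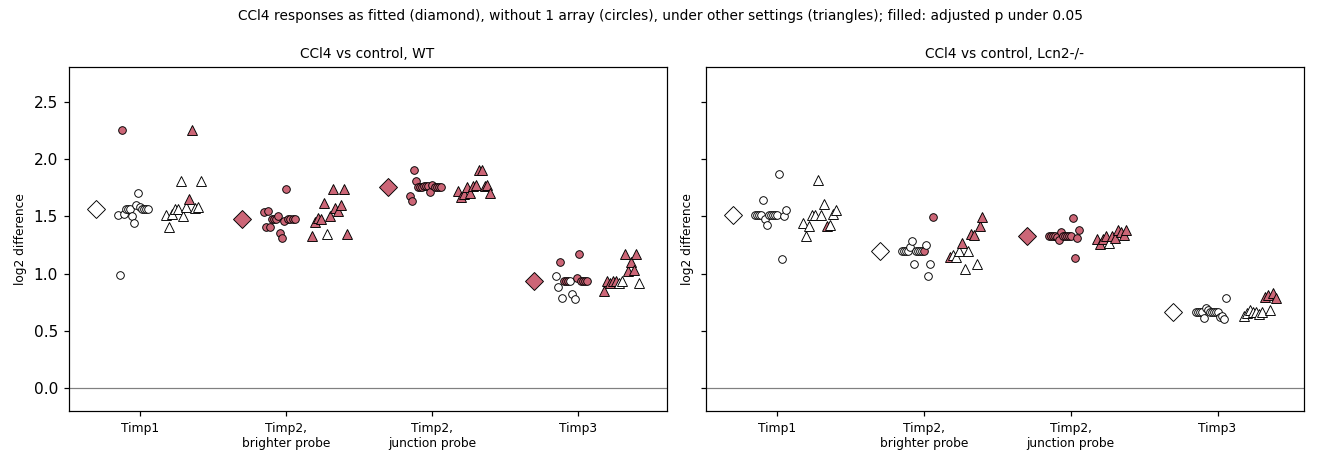
Log2 difference between CCl4 and control for Timp1, both Timp2 probes and Timp3 in WT (left) and Lcn2-/- (right), as fitted (diamond), with 1 of the 16 arrays left out (circles) and under the other settings (triangles), filled where the limma adjusted p is under 0.05. Every difference lies above 0, and the Timp2 junction probe in WT, between 1.64 and 1.91, is filled throughout. Fills within slide 1 rest on the spread of the controls, as a lone CCl4 array has none, and are not read.

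The loss of Lcn2 was then examined in CCl4-treated livers. In limma, 0 of the 4 members tested passed, where 0.649% of all genes passed, and 0 had an unadjusted p under 0.05, where 13.6% of all genes did. Timp1 was lower in Lcn2-/- CCl4 by a difference of -0.79 (95% interval -2.04 to 0.45, limma adjusted p = 0.573, exact permutation p = 0.127). The Lcn2-/- value of 11.17 lay within the WT range, and the others, at 8.93, 10.05 and 9.87, lay below the lowest WT value of 10.24. Groups did not overlap for 5.67% of all genes here. Timp2 differed by -0.41 (95% interval -1.13 to 0.31, limma adjusted p = 0.618), Timp3 by -0.27 (-0.85 to 0.32, 0.701) and Reck by 0.07 (-0.34 to 0.49, 0.892). Without 1 array the differences ranged from -1.18 (without Lcn2-/- CCl4 2) to -0.44 (without Lcn2-/- CCl4 1) for Timp1, from -0.68 (without WT CCl4 5) to -0.12 (without Lcn2-/- CCl4 4) for Timp2 and from -0.50 (without WT CCl4 5) to -0.11 (without WT CCl4 3) for Timp3, and none passed. Within slide 2, which holds 4 arrays of each genotype, Timp1 differed by -0.73 (limma adjusted p = 0.522) and Timp2 by -0.45 (0.731).

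On the junction probe of Timp2 the 5 WT CCl4 arrays lay between 11.73 and 11.98, while 3 of the 4 Lcn2-/- CCl4 arrays lay between 10.75 and 11.28 and Lcn2-/- CCl4 2 lay at 11.80, inside the WT range. The difference of -0.58 (95% interval -0.99 to -0.16) had an unadjusted limma p of 0.0104 and an exact permutation p of 0.0397, and it did not pass after adjustment over all probes (limma adjusted p = 0.244, where 0.524% of probes passed). Within slide 2 it was -0.59 (limma adjusted p = 0.325), and over the 16 fits without 1 array it ran from -0.77 to -0.42.

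In corn oil controls, Timp1 differed by -0.74 between the genotypes (95% interval -2.16 to 0.68, limma adjusted p = 0.965), Timp2 by -0.14, Timp3 by 0.01 and Reck by 0.06, and 0 of 4 passed in limma with 0 at an unadjusted p under 0.05. Of all genes, 0.517% passed and 8.31% had an unadjusted p under 0.05. Without both control replicates 3, Timp1 differed by 0.03, so the sign of its difference between controls rested on those arrays. The difference between the responses of Lcn2-/- and WT livers, the interaction, was -0.05 for Timp1 (95% interval -1.94 to 1.83), -0.27 for Timp2 (-1.37 to 0.82), -0.27 for Timp3 (-1.15 to 0.61), 0.01 for Reck (-0.61 to 0.64) and -0.43 for the Timp2 junction probe (-1.06 to 0.20). In limma 0 members passed for the interaction, 0 had an unadjusted p under 0.05, and of all genes 0.0534% passed and 3.31% had an unadjusted p under 0.05. A response that passed in WT and not in Lcn2-/- was therefore not shown to differ between the genotypes. The order of group means was WT CCl4, Lcn2-/- CCl4, WT control and Lcn2-/- control for Timp1 and Timp2. For Timp3 it was the same but for the controls, at 11.93 in Lcn2-/- and 11.92 in WT, and for Reck the Lcn2-/- groups lay above the WT groups, at 8.47 against 8.40 under CCl4 and 8.18 against 8.12 in controls. The genotypes of one treatment, neighbours in each order, did not pass the test for any member, and Lcn2-/- CCl4 was not tested against WT control.

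**Figure D4:**
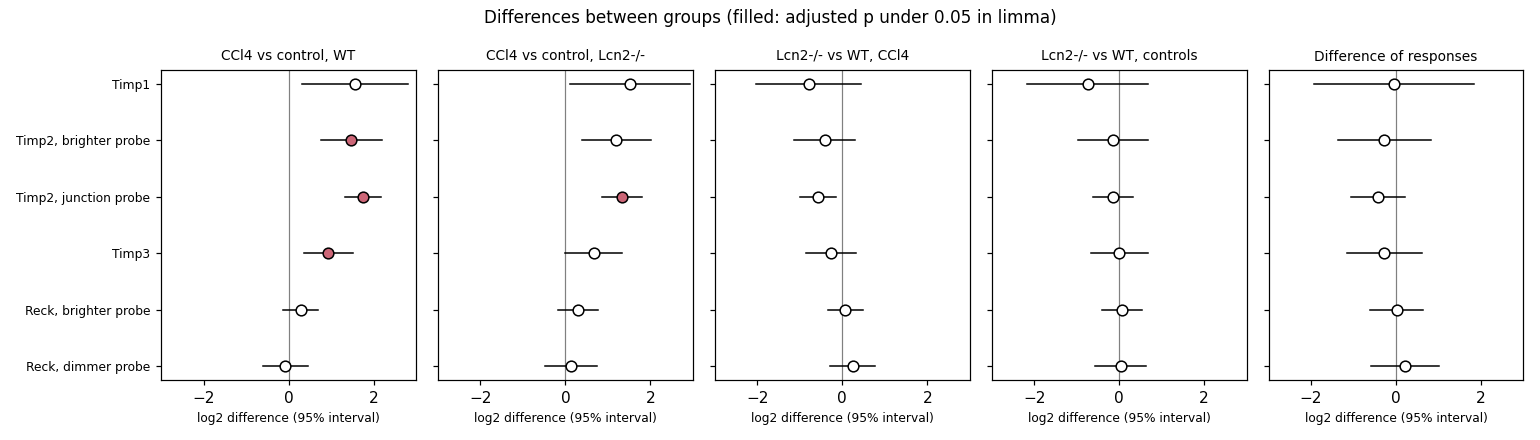
Log2 differences with 95% intervals for 6 member probes in the 5 comparisons, filled where the limma adjusted p is under 0.05. Filled points appear in the CCl4 responses, for both Timp2 probes and Timp3 in WT and for the Timp2 junction probe in Lcn2-/-, and in no comparison of genotypes.

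Members were compared with each other through deviations from their group means over the 16 arrays, a description in which arrays share slide and processing. The brighter Timp2 probe and Timp3 moved together (r = 0.846), and Reck moved opposite to both (r = -0.592 with Timp2 and -0.554 with Timp3). Timp1 followed neither closely (r = 0.344 with Timp2 and 0.319 with Timp3). WT CCl4 5 and Lcn2-/- CCl4 4, which shared column 4 of slide 2, were the lowest of their groups for the brighter Timp2 probe and Timp3 and the highest for Reck. On the Timp2 junction probe WT CCl4 5 was the lowest of its group at 11.73, next to WT CCl4 1 at 11.75, and Lcn2-/- CCl4 4 was not the lowest of its group. The 2 probes of Timp2 had r = 0.396 and those of Reck r = 0.642. The array column's part in this was not tested beyond a fit with column as a block, in which Timp2 (1.41, limma adjusted p = 0.00800) and Timp3 (0.83, limma adjusted p = 0.0413) passed in Lcn2-/-. That setting was chosen after seeing the data.

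By the same measure over 24353 genes, Timp1 was most like Fkbp10 (r = 0.949), which encodes a collagen chaperone, Fstl1 (0.941), which encodes a secreted glycoprotein, and Aebp1 (0.922), which encodes a collagen-binding protein. Timp2 was most like Pakap (0.958), Afap1 (0.956), which encodes an actin filament protein, and Numa1 (0.951), which encodes a spindle protein. Timp3 was most like Clic4 (0.940), Pakap (0.937) and Gm9154 (0.929), and Reck was most like E130018N17Rik (0.948), K230010J24Rik (0.945) and Alg6 (0.938), an enzyme of N-glycosylation. Timp2 and Timp3 had Pakap in common. With Lcn2, r was 0.425 for Timp1, 0.137 for Timp2, 0.505 for Timp3 and -0.220 for Reck. WT control 3 weighs on these values, with Lcn2 at 17.57 against a group mean of 15.16. Timp1 was at 11.28 on that array against a group mean of 9.23, and Timp3 at 12.41 against 11.92. No r was computed without WT control 3, so these values are not read as members following Lcn2.

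Proteases of the kinds that the members inhibit were measured on the same arrays. Here and below, calls are from the fit of 4 groups unless a setting is named, and slide overlaps treatment. With slide as a fixed block, 22 calls of named genes other than members were lost, and these are not listed. Of 23 MMP genes, 15 were tested, and 9 rose in WT and 7 in Lcn2-/-. Mmp3, Mmp8, Mmp9 and Mmp12 were above background mainly in the CCl4 groups and passed the filter on dim probes through them, so they could hardly have been called lower. Without both control replicates 3 the counts were 10 and 9. Mmp2, the gelatinase that Timp2 and MMP14 bring to the cell surface, rose in both genotypes, by 3.82 in WT and 4.38 in Lcn2-/- (limma adjusted p of 7.73e-07 and 5.2e-07). Mmp14 rose in both genotypes, by 0.91 in WT and 1.52 in Lcn2-/- (limma adjusted p of 0.0264 and 0.00356), and its WT call was lost without WT control 1, WT control 2, WT CCl4 1, WT CCl4 2 or WT CCl4 4 (limma adjusted p up to 0.0978). Mmp12, the macrophage elastase, rose by 6.19 in WT (limma adjusted p = 4.36e-05), with 2 of 4 WT controls well above background. In Lcn2-/- CCl4 its level was at least 24.6-fold that of Lcn2-/- control, where no array was above background (10.14 against 3.79, limma adjusted p = 0.000174).

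Mmp8, the neutrophil collagenase, rose in WT (limma adjusted p = 0.00337), by a measured difference of 3.24 against controls of which 1 of 4 was well above background, so that its size is not exact. In Lcn2-/- CCl4 it was higher by at least 2.27-fold (limma adjusted p = 0.0290). Its Lcn2-/- call was lost without Lcn2-/- control 1, Lcn2-/- control 2, Lcn2-/- CCl4 3 or Lcn2-/- CCl4 4 (limma adjusted p up to 0.130). Mmp23 rose in both genotypes, by 2.48 in WT and 2.46 in Lcn2-/- (limma adjusted p of 4.89e-05 and 0.000251). Mmp3, stromelysin 1, rose in WT (limma adjusted p = 0.0181), by a measured difference of 2.54 with the same limit of 1 of 4 controls well above background, and did not pass without WT control 2 (1.97, 0.0704). In Lcn2-/- it was well above background in 0 of 3 controls and 1 of 4 CCl4 arrays. Its plotted difference there is not read because both groups were mostly at background. The plot of members and MMPs sets these responses beside those of the inhibitors.

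**Figure D5:**
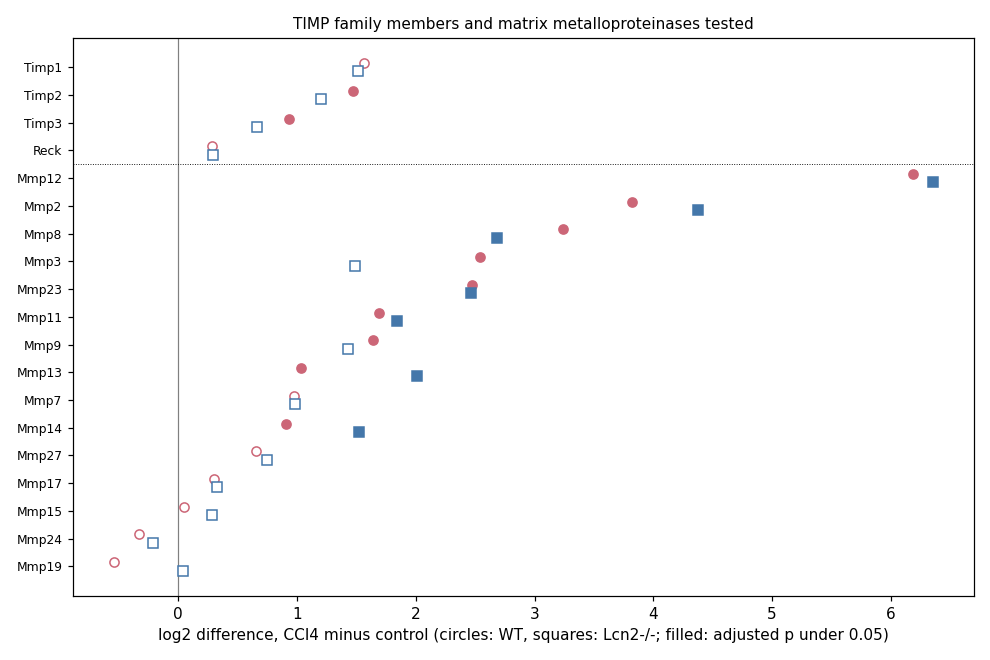
Log2 difference between CCl4 and control for the 4 members tested (above the dotted line) and the 15 MMP genes tested. WT is shown as circles and Lcn2-/- as squares, filled where the limma adjusted p is under 0.05. Mmp12 and Mmp2 lie farthest to the right in both genotypes, at 3.82 or more, and the members lie between 0.28 and 1.57. Controls of Mmp3, Mmp8, Mmp9 and Mmp12, and of Mmp24 in Lcn2-/-, were partly or wholly at background, so their plotted differences are not exact. Those of Mmp3, Mmp9 and Mmp24 in Lcn2-/-, where the CCl4 arrays were mostly or wholly at background too, are not read.

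Mmp24, a membrane-type MMP, was lower in Lcn2-/- than in WT livers, by a difference of -1.05 under CCl4 (limma adjusted p = 0.0323), where 1 of 4 Lcn2-/- arrays was well above background, so that its size is set against a group mostly at background, and in controls the fold was at least 1.54 (6.14 in WT control and not well above background in Lcn2-/- control, limma adjusted p = 0.0348). Blocking on replicate number raised these p values to 0.0926 (CCl4) and 0.142 (controls), and 75th percentile scaling gave 0.113 (controls). Mmp24 passed the filter on dim probes through the WT groups, so it could hardly have been called higher in Lcn2-/-. Of the 16 fits without 1 array, 7 lost the call under CCl4 (limma adjusted p up to 0.107) and 9 lost it in controls (up to 0.126).

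Of 17 ADAM and ADAMTS proteases, some of which Timp3 also inhibits, 15 were tested. Of these, 6 rose in WT and 8 in Lcn2-/-, with 0 lower, at median differences of 0.61 and 1.10. Without both control replicates 3 both counts were 9. Adam8, a protease of leukocytes, rose in both genotypes, by 3.70 in WT and 3.78 in Lcn2-/- (limma adjusted p of 0.00058 and 0.00214). The aggrecanase Adamts5 rose by 2.15 in WT, and the Lcn2-/- level was higher by at least 3.31-fold (limma adjusted p of 3.1e-05 and 9.9e-05). The procollagen peptidase Adamts2 rose by 1.91 and 1.74, and Adamts15 by 1.77 and 2.13, each past the test. Adam17, the TNF-releasing enzyme inhibited by Timp3, differed by -0.04 in WT and 0.02 in Lcn2-/-. Adamts13, which cleaves von Willebrand factor, was lower in Lcn2-/- by a difference of -2.67 under CCl4 (limma adjusted p = 0.00011) and at least 11.1-fold in controls (limma adjusted p = 4.67e-06), but its probes disagreed, since the mean of the probes was higher in Lcn2-/- by 1.30 under CCl4 (limma adjusted p = 0.0150).

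The plasminogen system, which activates proMMPs, was represented with other inhibitors by 11 genes, of which 10 were tested, 3 rose in WT and 2 in Lcn2-/-, and 1 fell in Lcn2-/-. Median differences were 0.05 and 0.19. Plat, tissue plasminogen activator, rose by 3.56 in WT, and the Lcn2-/- level was higher by at least 12.4-fold (limma adjusted p of 7.46e-05 and 0.000116). Plaur, the urokinase receptor, rose by 1.64 in WT (limma adjusted p = 0.0195, lost without WT control 2 or WT control 4, up to 0.0760) and by 2.01 in Lcn2-/- (0.0169, lost without Lcn2-/- control 1, 0.0842). Plau, urokinase, passed narrowly in WT (2.07, limma adjusted p = 0.0498), and 12 of the 16 fits without 1 array lost this call (up to 0.142). Serpine2, an inhibitor of urokinase and thrombin, fell by 1.84 in Lcn2-/- (limma adjusted p = 0.0122, lost without Lcn2-/- control 1 or 2, up to 0.0731).

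Of 11 cell surface and matrix partners of TIMPs and Reck, 8 were tested and 3 rose in each genotype, at median differences of 0.33 in WT and 0.48 in Lcn2-/-. Cd63, the tetraspanin to which TIMP1 binds, rose in both genotypes, by 2.98 in WT and 3.38 in Lcn2-/- (limma adjusted p of 2.07e-06 and 2.99e-06), with every CCl4 array at 15.79 or above and every control at 14.10 or below. Adgra2, the receptor that works with Reck, rose in both genotypes, by 1.03 in WT and 0.96 in Lcn2-/- (limma adjusted p of 0.000855 and 0.00514). Itga3, an integrin chain, rose by 0.54 (limma adjusted p = 0.0269) and 0.64 (0.0287), and lost its call without any of 4 arrays in WT (up to 0.0919) and 5 in Lcn2-/- (up to 0.116), and in both genotypes under 75th percentile scaling (0.132 and 0.176). Of the receptors Itgb1, Lrp1 and Cd44, none passed in limma.

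A list of inducers and transcription factors of Timp1, with receptors and pathway genes, held 24 genes, and not each of them is an inducer. Of these, 21 were tested, 6 rose in WT and 3 in Lcn2-/-, and 0 fell, at median differences of 0.35 and 0.30. Without both control replicates 3 the counts were 9 and 5. The oncostatin M receptor Osmr rose in both genotypes, by 1.30 in WT and 0.88 in Lcn2-/- (limma adjusted p of 0.00146 and 0.0435), the latter lost in 12 of 16 fits without 1 array (up to 0.202). Tgfbr2, a TGF-beta receptor chain, rose by 1.28 (limma adjusted p = 0.000518) and 1.25 (0.00256). The AP-1 factor Fosl2 rose by 0.94 (limma adjusted p = 0.00784) and 0.85 (0.0352, lost in 4 of 16 fits without 1 array, up to 0.126), and Ets2 rose in WT by 0.61 (0.0205, lost in 3 of 16, up to 0.0777). Tgfb1 differed by 0.48 and 0.70 without passing (limma adjusted p of 0.152 in WT and 0.0799 in Lcn2-/-), and Stat3 by -0.38 and -0.65 without passing. The mean level of the 21 genes on WT control 3 was 11.14, against 9.69 to 10.16 in the other WT controls.

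The Timp genes lie within or across genes of other kinds, since Timp1, Timp3 and Timp4 sit in introns of the synapsin genes Syn1, Syn3 and Syn2, and Cep295nl lies at Timp2. Syn1 differed by 0.16 in WT and 0.20 in Lcn2-/-, and Syn3, on its brightest probe, by -0.13 and -0.58, and neither passed in limma. The brighter Syn2 probe was well above background in 1 of 4 WT controls, 3 of 5 WT CCl4 arrays and no Lcn2-/- array. Cep295nl was well above background on 1 of 16 arrays and was not tested. A further Syn3 probe, not tested, was well above background on 3 of 5 WT CCl4 arrays (8.21, 5.59 and 7.89) and on no array of the other groups, so the Syn3 probes differed among themselves in WT.

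Markers of stellate cells, the main matrix-producing cells of the injured liver, were higher after CCl4. Of 13 markers tested, 11 rose in WT and 10 in Lcn2-/-, and their mean level ranged from 10.63 to 11.56 in WT control, 12.19 to 12.88 in WT CCl4, 10.51 to 10.69 in Lcn2-/- control and 12.12 to 12.39 in Lcn2-/- CCl4. Col1a1, a collagen I chain, rose in both genotypes, by 3.49 in WT and 4.21 in Lcn2-/- (limma adjusted p of 0.00013 and 0.00014), Col1a2 by 2.89 and 2.98, Col3a1 by 2.64 and 3.20, and Lum by 2.78 and 2.53. Acta2 differed by 0.37 and 0.39 without passing. Of 12 macrophage markers, 4 rose and 2 fell in WT and 4 rose in Lcn2-/-, and their mean level ran from 12.43 to 12.98 in WT CCl4 and from 12.30 to 12.89 in Lcn2-/- CCl4. Of 10 neutrophil markers 6 rose in WT and 1 in Lcn2-/-, and 8 and 7 did so without both control replicates 3. Of these, Cxcr2, Ltf and Ngp passed the filter on dim probes through the CCl4 groups. The mean level of the neutrophil markers ran from 10.305 to 11.066 in WT CCl4 and from 9.751 to 10.338 in Lcn2-/- CCl4. Between the genotypes under CCl4, 0 of the 10 passed in limma. The other lists were short. Hepatocyte markers passed in 1 of 9 in WT and 0 in Lcn2-/-, and cholangiocyte markers in 1 of 7 in each. Endothelial markers passed as 1 higher and 1 lower of 9 in WT and 1 higher in Lcn2-/-. Adipose, muscle and pancreas markers passed as 1 higher and 1 lower of 8 in WT and 1 higher in Lcn2-/-. Over all genes 16.7% passed in WT and 12.1% in Lcn2-/-, and these counts were not tested against those shares. How far the number of stellate cells sets the TIMP levels was not tested.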

How the data were processed

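Complementary DNA made from total liver RNA was labelled with Cy3 and hybridized to 16 Agilent 1-colour arrays, 1 per sample. The deposited scanner files hold intensities per spot, the processed signal of Agilent Feature Extraction 10.7.3.1, already corrected for background by the authors' software, with probe positions on mm9. The deposited table of log2 values was used as an alternative only. Of 62976 spots, 3671 controls were left out, 121 of 55681 probes were dropped because every spot was marked as an outlier on some array, log2 signals were quantile normalized and spots of 1 probe were averaged. Probes that passed the scanner's background test on 3 or more arrays were kept, with the probe of highest mean per gene, giving 24357 genes. One limma 3.58.1 model (R 4.3.3) of 4 groups gave 5 comparisons with Benjamini-Hochberg adjustment over all genes at 0.05, second probes came from a fit over 33014 probes, and exact permutation tests were two-sided. Named genes were the members, the 4 largest differences past the test per list and direction, the 3 genes most like each member, the genes overlapping a TIMP gene, and Lcn2, Col1a1, Mmp2 and Mmp14. Adam17, Itgb1, Lrp1, Cd44, Tgfb1, Stat3, Acta2 and Alb were added after their values were seen. For the marker lists other than stellate cells, the text gives counts or mean levels and not the differences of single genes. The model was run on simulated data with independent noise and no slide, column or outlying array. That run therefore cannot show how the fits behave under these features of the data. The number of arrays limits the precision. Replicate numbers are shared between groups. Same-numbered WT and Lcn2-/- controls deviated together (r of 0.233, 0.368 and 0.552). They also shared a column of slide 1, so pairing by number and array column cannot be told apart there, and no label states a pairing. Over all 21 pairs r ran from -0.221 to 0.552, with 6 above 0.1. RefSeq tables matched 61% of the genes tested. Members and lists were chosen with earlier results of these data known.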

Additional observations from a re-analysis of the deposited data

Results flagged for a closer look

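Of 21 member and group combinations with 4 or 5 arrays, 3 held an array set apart from the rest of its group by Dixon's criterion, which chance meets in about 1 of 20. The Timp2 junction probe measured 11.98 in WT CCl4 4, against 11.78 in the next array. Timp3 measured 12.20 in Lcn2-/- CCl4 4, below the next array at 12.67. Timp4 measured 3.96 in Lcn2-/- CCl4 4, against 3.06 in the next and stayed at background on all 16 arrays.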

How the results depend on the processing

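Of 248 values of the members under other settings, leaving out single arrays aside, 216 kept their direction and side of the threshold, 4 no longer passed, 13 newly passed and 15 changed sign. Of 638 such values of the other named genes, 560 kept both, 76 no longer passed, 22 of them with slide as a block, and 2 changed sign. The cause of these changes was not tested. The counts for members and other genes include the fit within slide 1, whose calls rest on the spread of the controls and are not read. Newly passing in Lcn2-/- were Timp2 under 75th percentile scaling (1.147), the mean of probes (1.263), the replicate block (1.344), array weights (1.340), the column block (1.412) and without WT CCl4 5 and Lcn2-/- CCl4 4 (1.493), Timp3 under the replicate block (0.792, limma adjusted p = 0.00922), array weights (0.810), the column block (0.83) and without that pair (0.790), and Timp1 under array weights (1.415). Timp1 passed in WT under array weights (1.655) and without both control replicates 3 (2.251). Timp2 (1.343) and Timp3 (0.920) lost the WT call with slide as a block, and Timp3 also with the row as a block (0.939). Within slide 1 Timp3 differed by 0.920. These changed sign. For Timp1 the interaction was 0.007 under the slide or row block and 0.028 under the replicate block, and the control difference 0.033 without both control replicates 3. For Timp2 the control difference was 0.023 under the row block and 0.051 without both control replicates 3. For Timp3 it was -0.123 under the replicate block, -0.045 under array weights and -0.159 under the column block. For Reck, under the row block it was -0.039 in controls and -0.006 under CCl4, under array weights -0.010 in controls, the interaction was -0.022 under the column block, and without the pair the values were -0.060 under CCl4 and -0.120 for the interaction. The second Reck probe gave -0.108 in Lcn2-/- under 75th percentile scaling and -0.005 under the column block, 0.485 in WT under the slide block or within slide 1, -0.322 under CCl4 and -0.673 in controls under the row block, and in controls -0.167 under array weights and -0.089 without both control replicates 3. The second Timp2 probe in Lcn2-/- lost its call under the slide block (1.266). Adamts13 by the mean of probes gave 0.471 in controls and 1.302 under CCl4. Leaving out 1 array, ranges for WT response, Lcn2-/- response, genotype under CCl4, genotype in controls and interaction were, for Timp1, 0.992 to 2.251, 1.125 to 1.873, -1.183 to -0.435, -1.316 to -0.058 and -0.737 to 0.521. For Timp2 they were 1.307 to 1.740, 0.976 to 1.493, -0.679 to -0.121, -0.221 to -0.025 and -0.539 to 0.019. For Timp3 they were 0.781 to 1.172, 0.604 to 0.790, -0.503 to -0.111, -0.143 to 0.170 and -0.510 to -0.118. For Reck they were 0.209 to 0.350, 0.089 to 0.503, -0.135 to 0.278, 0.028 to 0.113 and -0.195 to 0.218. The second Reck probe ran from -0.234 to 0.084 in WT and from -0.120 to 0.139 in controls, and the second Timp2 probe from -0.266 to 0.003 in controls. Genes passing numbered 2485 to 5074, 1680 to 3194, 72 to 191, 94 to 142 and 8 to 15, against 4064, 2958, 158, 126 and 13 with every array. They numbered 1295 in WT and 426 in Lcn2-/- under the slide block. Under the row block they numbered 80 under CCl4 and 48 in controls, and under the replicate block 87 under CCl4 and 6 for the interaction. Array weights gave 7006, 6975, 321 and 1253 in the first 4 comparisons. There were 216 in controls with no filter and 255 under CCl4 without both control replicates 3. For the interaction there were 7 with normexp, 3 with the deposited table and 8 without the pair. The column block and the pair were chosen after seeing the data.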
